A study of Mus musculus with 4 samples.

Results

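The 99 genes described here carry the symbols of subunits of the oxidative phosphorylation machinery, 86 of them carried by nuclear chromosomes and 13 by mitochondrial DNA. They are the protein-coding genes whose GENCODE M21 symbols name subunits of NADH dehydrogenase (Nduf), succinate dehydrogenase (Sdh), cytochrome bc1 (Uqcr), cytochrome c oxidase (Cox4 to Cox8), ATP synthase (Atp5) or the mt-Nd, mt-Co, mt-Atp and mt-Cytb genes, among 54532 gene IDs in the deposited tables. The material was fetal pancreas, described by the series as pancreatic epithelium, from C57BL/6 mouse embryos of WT genotype at embryonic days E11.5 and E13.5 and later at E15.5 and E18.5, with 1 sample per stage and no treatment. Age was the only labelled difference between the groups. The intervals between them are called here the early step (E11.5 to E13.5), the middle step (E13.5 to E15.5), the late step (E15.5 to E18.5) and the whole interval (E11.5 to E18.5). The way the epithelium was separated from its surroundings was not given in the sources used here. Total RNA was used, and the libraries were cut to cDNA fragments of 370 to 420 bp.

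Oxidative phosphorylation is the last stage of respiration, in which the inner mitochondrial membrane turns the energy of NADH and succinate into ATP. Complexes I and II pass electrons to ubiquinone, complex III passes them to cytochrome c, complex IV gives them to oxygen, and complex V, the ATP synthase, spends the proton gradient built by complexes I, III and IV. Mitochondrial DNA supplies a few membrane-embedded subunits of complexes I, III, IV and V, all of complex II is nuclear, and both genomes must therefore be expressed together. The fetal pancreas passes over these stages from a bud of progenitors to a gland of enzyme-secreting acini, ducts and hormone cells.

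Levels are given in FPKM, fragments per kilobase of exon corrected for library size, after each sample was divided by 1 factor that centres most genes (median of ratios), and differences are on the log2(FPKM + 1) scale. Of the 99 members, 82 nuclear and 12 mt- genes reached 1 FPKM in at least 1 stage and are called measured. Cox7b2, Cox8b, Cox8c and a second gene ID that also carries the symbol Atp5o did not, nor did mt-Nd3. The labels give 1 sample per stage, so size was judged first by a fold rule, a ratio of 2 or more of FPKM + 1 between stages of which the larger reached 5 FPKM, beside the share of all 14828 measured genes that passed it. The deposited values also split into averages of 2 libraries of whole reads (96.3% to 96.5% of the genes attempted in each stage), whose reads could be recovered for 54 nuclear and 6 mt- members in all 8 libraries. Those libraries held an estimated 13680200 to 17951300 reads each. They were compared with limma, and "rose" and "fell" mean here an adjusted p of 0.05 or less by limma. Whether the 2 libraries stem from different embryos or litters is unstated in the labels, so these p-values measure only the spread between libraries, which may be technical.

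Markers of acini, ducts and hormone cells were far higher in the later stages, and markers of blood, muscle, nerve and mesenchyme were highest at E11.5. The 9 acinar markers summed to 0.00220% of all FPKM at E11.5, 1.76% by E13.5, 20.0% at E15.5 and 11.02% by E18.5. The 7 endocrine markers took 0.0832% at E11.5 and 0.552% to 7.22% later, the 4 duct and trunk markers 0.0608% and then 0.359% to 3.75%, and the 4 general epithelial markers 0.270% and then 0.563% to 0.766%. The 10 erythroid markers took 3.18% at E11.5 and 0.0557% to 0.138% later, the 8 mesenchymal markers 0.0736% and then 0.00829% to 0.0179%, and the 5 neuronal and neural crest markers 0.231% and then 0.00187% to 0.00894%. The 6 muscle markers summed to 68.0 FPKM at E11.5 and 0.927 to 1.38 FPKM later, the 4 leukocyte markers to 31.4 FPKM and then 3.48 to 6.51 FPKM, and the 3 endothelial markers to 0.233 FPKM or less in every stage. The part of these cell mixtures in the differences from E11.5 was not tested. In tissue RNA a change in the share of a cell type and a change in RNA per cell cannot be told apart.

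The nuclear genes of oxidative phosphorylation were low at E11.5, higher at E13.5, highest at E15.5 and lower again at E18.5 with median-of-ratios scaling. When samples were instead set to equal totals, given further on, 38 of 82 were highest at E15.5 and 32 at E13.5, a majority at neither. The median nuclear member was at 34.6 FPKM at E11.5, 56.4 by E13.5, 92.5 at E15.5 and 55.3 by E18.5, and the summed level of the 82 genes went from 4982 to 8140.0, 11289 and 7534 FPKM. As a share of all FPKM the sum was 1.62%, 2.404%, 2.16% and 1.63% in stage order, highest at E13.5 and at E18.5 back near its first value. Of the 82, 69 (84.1%) had their highest level at E15.5, where 26.8% of all genes had theirs. Over the early step the median difference was 0.66, with 72 of 82 above 0, while the median of all genes was -0.02. The middle step added a median of 0.58 with 74 of 82 above 0, against 0.00 for all genes. Over the late step the median was -0.61 with 74 of 82 below 0, against 0.04 for all genes. Over the whole interval the median was 0.60, with 73 of 82 above 0.

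By the fold rule, 14 of 82 nuclear members were at least 2-fold higher at E13.5 than at E11.5 and 0 were lower, where 5.78% of all genes were higher and 5.74% lower. Over the middle step 5 were higher and 0 lower (3.64% and 1.48% of all genes). Over the late step 12 were lower and 1 higher (5.55% and 6.29%), and over the whole interval 18 were higher and 0 lower (10.4% and 7.55%). With 1.5-fold in place of 2-fold the counts were 48 higher and 2 lower (11% and 10.3% of all genes), 41 and 0 (8.76% and 5.35%), 2 and 43 (11.9% and 11.4%), and 41 and 1 (15.7% and 14.1%). At each step most members differed by less than 2-fold, and those past the 2-fold rule lay on the same side, Cox6a2 in the late step being the exception.

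Of the 54 nuclear members with recovered libraries, limma called 43 risen and 3 fallen at E13.5, where 31.4% of 13029 genes rose and 36.4% fell. The 3 that fell were Ndufa10, Ndufs1 and Ndufa4l2. Over the middle step 47 rose and 4 fell (28.7% and 26.8% of all genes), the 4 being Ndufs1, Sdha, Cox4i2 and Atp5s. Over the late step 5 rose and 44 fell (37.2% and 30.8%), the 5 being Ndufa4l2, Ndufs1, Sdha, Cox6a2 and Atp5s. Over the whole interval 41 rose and 3 fell (36.6% and 38.0%), the 3 being Ndufa10, Ndufs1 and Cox7c. The adjacent comparisons share a stage, so a low or high library at E13.5 or E15.5 enters both of its comparisons.

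**Figure D1:**
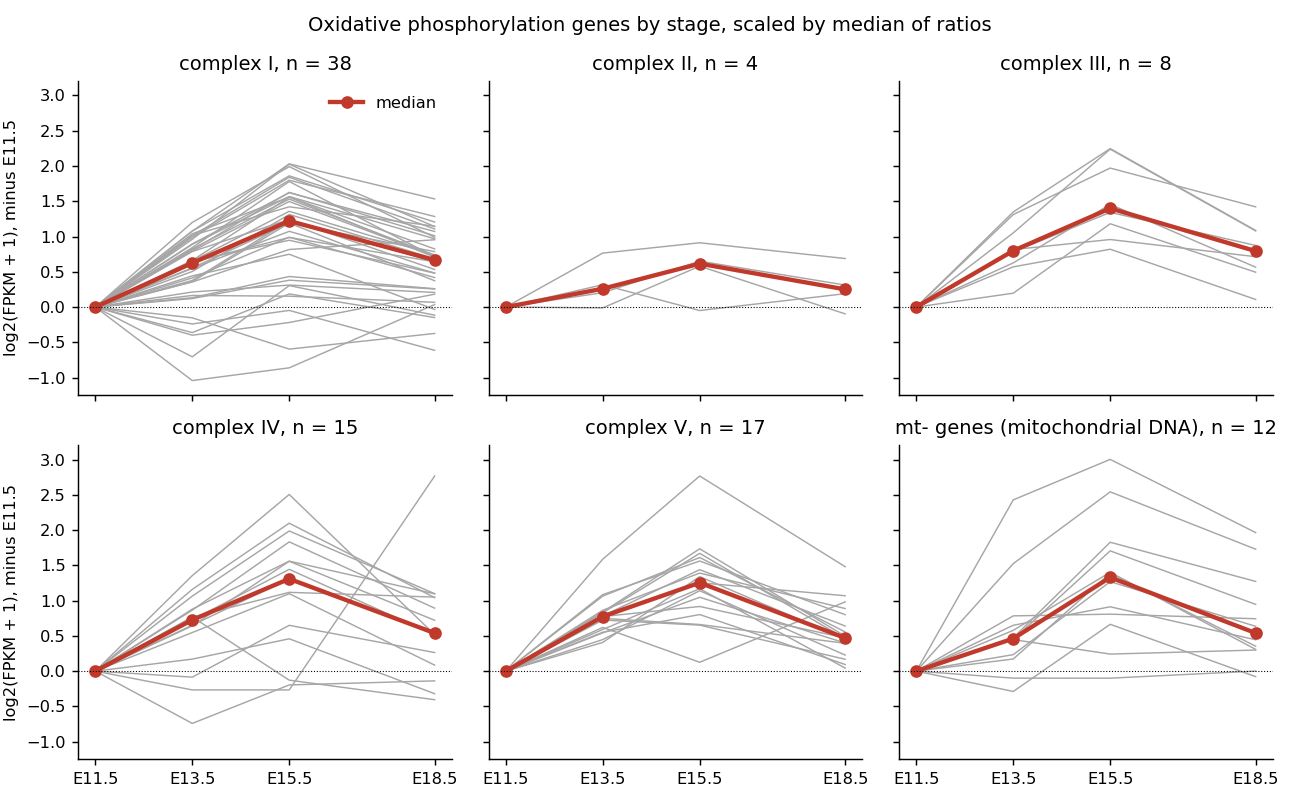
Level of each measured member relative to E11.5 on the log2(FPKM + 1) scale (vertical axis) at the 4 stages (horizontal axis), in 1 panel per nuclear complex and 1 for the mt- genes. Grey lines are genes, the red line is their median, and the dotted line marks the E11.5 level. With this scaling the medians of all 6 panels peak at E15.5, the lowest of them for complex II at 0.62.

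How libraries were scaled sets the size of the middle step. Setting samples to the same total FPKM counts the acinar enzymes of E15.5 in the total. The nuclear median of the middle step was then 0.01, with 41 of 82 above 0. By limma 10 of 54 nuclear members rose and 10 fell, where 1118 of 13029 genes rose and 7921 fell. The same scaling moved the median of all genes to -0.41, so relative to all genes the nuclear median was 0.42, against 0.58 with the main scaling. Over the whole interval the nuclear median was 0.06 and that of all genes -0.46 under equal totals, a difference of 0.52. The rise to E13.5 and the decline after E15.5 kept their direction under equal totals, at medians of 0.52 and -0.44. Under equal totals 40 of 82 members were below 0 at the middle step, so a smaller increase at that step changes sign with the scaling. The stage of the highest level was less settled, with 38 nuclear members highest at E15.5 and 32 at E13.5 under equal totals.

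RefSeq promoter windows (GRCm38.p6, 250 bases before to 50 bases after a start) were matched by symbol for 67 of the 82 measured nuclear members. The letters GCGC and TGCGC with 1 base between them, the core of the site that Nrf1 binds, stood on either strand in 17 of the 67 (25.4%), in 11.2% of 9899 other measured nuclear protein-coding genes and in 4.60% of all 32851 windows of that length. The YY1 letters AAGATGGCG were in 7 members (10.4%, against 3.45% of the other genes and 1.40% of all windows), the ETS letters CCGGAAG in 16 (23.9%, against 19.5% and 8.86%), and CCAAT in 29 (43.3%, against 43.5% and 37.4%). Printed here are the 120 bases before the start of 4 members whose window holds the Nrf1 letters, taken from the 8 that reached 10 FPKM in every stage, have a single window in the table and hold the letters within those bases. Of these 8 they are the 3 with the largest differences between E15.5 and E11.5 and the 1 with the smallest, Sdha, all on the reverse strand and written 5′ to 3′ along the gene, with those letters in capitals. Cox6a1 lies at chr5:115348959-115349078, Ndufa8 at chr2:36049339-36049458, Ndufs6 at chr13:73328483-73328602 and Sdha at chr13:74350241-74350360. The starts are those of RefSeq. In GENCODE these genes reach 115348981, 36049406, 73328542 and 74350280 in the same order, so part of each printed stretch lies inside the GENCODE gene.
Cox6a1: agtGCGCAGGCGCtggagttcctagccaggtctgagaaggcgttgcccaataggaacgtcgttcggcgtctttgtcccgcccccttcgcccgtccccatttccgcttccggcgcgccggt
Ndufa8: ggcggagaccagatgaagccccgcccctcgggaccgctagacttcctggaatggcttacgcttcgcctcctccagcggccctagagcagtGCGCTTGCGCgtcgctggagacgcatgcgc
Ndufs6: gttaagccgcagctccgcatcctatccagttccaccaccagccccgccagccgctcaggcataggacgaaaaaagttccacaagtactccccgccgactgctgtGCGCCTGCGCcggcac
Sdha: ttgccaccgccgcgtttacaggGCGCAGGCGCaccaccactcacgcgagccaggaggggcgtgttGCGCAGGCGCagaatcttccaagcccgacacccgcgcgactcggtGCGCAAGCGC

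Cox6a1, Ndufa8 and Ndufs6 each hold 1 match, which begins 117, 30 and 16 bases before the RefSeq start, and were 1.99, 1.86 and 1.78 higher at E15.5 than at E11.5. Sdha holds 3 matches, between 98 and 10 bases before the RefSeq start, and differed by -0.05. These 4 were picked by that difference, so it is a description of them. The 17 members with them had a median E15.5 against E11.5 difference of 1.57, from -0.05 to 2.03, and the 50 without them 1.23, from -0.22 to 2.77, so the ranges overlapped almost fully. A match is a description of these letters, and the data hold no binding measurement.

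Complex I takes electrons from NADH and is the largest of the complexes, with a catalytic core and many supernumerary subunits around it. Its 38 measured nuclear genes had medians of 0.62, 0.62 and -0.57 over the early, middle and late steps, with 32 of 38 above 0, 36 of 38 above 0 and 34 of 38 below 0. Of these nuclear genes the one with the highest mean FPKM was Ndufa8 (ENSMUSG00000026895, mm10 chromosome 2, 36036326 to 36049406, reverse strand), a supernumerary subunit. Its levels were 102 ± 2.53 at E11.5, 216 ± 8.60 by E13.5, 371 ± 21.9 at E15.5 and 236 ± 6.94 by E18.5 FPKM (SD, n = 2 recovered libraries). The library ranges of the 4 stages did not overlap, those of E13.5 (210.0 to 222 FPKM) and E18.5 (228 to 238 FPKM) being the closest. By limma Ndufa8 rose by 1.09 ± 0.0562 (SE, log2) to E13.5 (adjusted p = 7.12e-06) and by 0.79 ± 0.0562 to E15.5 (adjusted p = 8.73e-05).

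Ndufs8 and Ndufv2, iron-sulfur subunits of the core, came next in level. Ndufs8 was at 109 FPKM at E11.5, 155 by E13.5, 272 at E15.5 and 175 by E18.5. Ndufv2 was at 95.4 FPKM at E11.5, 165 by E13.5, 227 at E15.5 and 138 by E18.5. Ndufs8 could not be split into libraries, and Ndufv2 could be split at E11.5 alone. Both had their highest level at E15.5.

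The complex I genes with the largest rise over the whole interval were Ndufa6, Ndufb11 and Ndufa8, all supernumerary. Ndufa6 was at 11.47 ± 0.860 at E11.5, 25.3 ± 4.61 by E13.5, 49.9 ± 0.590 at E15.5 and 35.1 ± 0.540 by E18.5 FPKM (SD, n = 2 recovered libraries), which is 1.53 higher at E18.5 than at E11.5 (limma adjusted p = 2.43e-05). Ndufb11, an X-linked subunit, was at 54.5 ± 3.92 at E11.5, 109 ± 10.2 by E13.5, 192 ± 7.86 at E15.5 and 134 ± 0.315 by E18.5 FPKM (SD, n = 2 recovered libraries). Both genes had every later library above both E11.5 libraries. Others past the 2-fold rule in a comparison were Ndufa2, Ndufa5, Ndufa7, Ndufa11, Ndufa12, Ndufa13, Ndufb9, Ndufc2 and Ndufs6. Ndufa5 was at 8.48, 20.8, 36.7 and 17.8 FPKM and Ndufb9 at 44.9, 88.4, 186 and 100.3 FPKM in stage order. Ndufs6, an assembly-linked zinc-binding subunit, was at 26.6, 48.5, 93.8 and 44.3 FPKM, and Ndufc2 at 63.8, 130.1, 173 and 142 FPKM.

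The 7 nuclear core subunits, those with flavin or iron-sulfur centres or quinone contacts, are set here beside the other 31 (a split made after the values were seen). Their medians were 0.50, 0.46 and -0.57 over the successive steps, against 0.65, 0.70 and -0.57 for the others, and under equal totals the second of these turned to -0.17 for the core and was 0.09 for the others. Ndufs1, the largest core subunit (ENSMUSG00000025968, mm10 chromosome 1, 63143596 to 63176833, reverse strand), went against the rest. Its levels were 16.6 ± 0.609 at E11.5, 14.9 ± 0.300 by E13.5, 10.7 ± 0.00448 at E15.5 and 12.6 ± 0.238 by E18.5 FPKM (SD, n = 2 recovered libraries). The level at E15.5 was the lowest of the 4 stages, and by limma Ndufs1 fell by 0.44 ± 0.0402 (SE, log2) from E13.5 to E15.5 (adjusted p = 0.000218). The core subunit Ndufv1, which binds the flavin, was close to level, at 65.4, 76.0, 81.5 and 75.7 FPKM in stage order. Ndufs7 (71.3, 109, 167 and 112 FPKM) and Ndufs3 (62.8, 92.3, 133 and 88.2 FPKM) followed the majority.

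Among the supernumerary subunits, Ndufa10, Ndufa12, Ndufa3, Ndufv3, Ndufa1 and Ndufa4l2 departed from the common profile. Ndufa10 was at 98.7 ± 1.44 at E11.5, 83.4 ± 0.759 by E13.5, 95.4 ± 1.82 at E15.5 and 64.1 ± 0.669 by E18.5 FPKM (SD, n = 2 recovered libraries), and fell by 0.61 on the log2 scale between E11.5 and E18.5, the largest decline in complex I (limma adjusted p = 5.55e-06). Ndufa3 was at 17.0, 13.01, 19.5 and 15.2 FPKM in stage order and had its lowest level at E13.5. Ndufv3, which could not be split, was at 26.0, 19.5, 22.2 and 29.6 FPKM and was highest at E18.5. Ndufa1, an X-linked subunit needed for assembly, was at 11.9 ± 2.26 at E11.5, 15.47 ± 0.708 by E13.5, 21.7 ± 1.28 at E15.5 and 23.9 ± 1.07 by E18.5 FPKM (SD, n = 2 recovered libraries), and its E18.5 libraries (22.9 and 24.4 FPKM) lay just above those of E15.5 (20.9 and 22.7 FPKM, limma adjusted p = 0.412). Ndufa12 had libraries of 61.4 and 29.7 FPKM at E15.5 and of 22.4 and 44.2 FPKM at E18.5, and no comparison of it passed limma (adjusted p from 0.107 to 0.729). Of the exon windows of Ndufa12, 17.7% also occur in a processed pseudogene, which makes its level less certain. That pseudogene was listed at 29.4, 126, 154 and 55.3 FPKM before scaling in stage order. The part of this shared sequence in the departure of Ndufa12 and in the spread of its libraries was not tested. Ndufa4l2, a paralog of Ndufa4 known as a target of the hypoxia response, was at 1.54, 0.234, 0.398 and 1.60 FPKM against 36.8, 58.4, 96.0 and 62.1 FPKM for Ndufa4, a subunit that structural work places in complex IV. Ndufab1, the mitochondrial acyl carrier protein, ended near its start, at 10.9, 15.1, 19.0 and 10.6 FPKM.

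Complex II, succinate dehydrogenase, belongs to the citric acid cycle as well and has no mitochondrially encoded subunit. Its 4 genes had the smallest medians of the 5 complexes, at 0.26, 0.30 and -0.28 over the successive steps, and 0 of 4 passed the 2-fold rule in any comparison. Under equal totals the median of its middle step turned to -0.32 and that of the whole interval to -0.33. Sdha, the flavoprotein (ENSMUSG00000021577, mm10 chromosome 13, 74322254 to 74350280, reverse strand), was at 62.0 ± 0.473 at E11.5, 77.4 ± 2.95 by E13.5, 59.9 ± 1.25 at E15.5 and 70.8 ± 1.80 by E18.5 FPKM (SD, n = 2 recovered libraries). It rose to E13.5 by 0.33 ± 0.0406 and fell by 0.36 ± 0.0406 to E15.5 (SE, log2, limma adjusted p = 0.000412 and 0.000513), and was thus lower at the stage where most members were highest. Sdhb, the iron-sulfur subunit, was at 168, 166, 251 and 157 FPKM in stage order. The membrane anchors were Sdhc at 47.1, 54.3, 74.4 and 58.7 FPKM and Sdhd at 241, 410.3, 454 and 389 FPKM, and of the 4 genes Sdhd differed most between E11.5 and E18.5, by 0.69.

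Complex III, cytochrome bc1, passes electrons from ubiquinol to cytochrome c. All 8 of its nuclear genes were higher at E13.5 than at E11.5, higher again at E15.5, and lower at E18.5, with medians of 0.80, 0.74 and -0.70, and all 5 with recovered libraries rose, rose and fell by limma. The most abundant were Uqcrfs1, the Rieske iron-sulfur protein, at 158 FPKM at E11.5, 278 by E13.5, 307 at E15.5 and 259 by E18.5, Uqcrc1 at 83.1, 144, 212 and 153 FPKM and Uqcrc2 at 106, 158, 189 and 115 FPKM, the last pair being the large core proteins. Of the small subunits, Uqcr10, Uqcr11 and Uqcrb had larger differences than these 3 over the early and middle steps, while Uqcrh and Uqcrq were below Uqcrc1 and Uqcrfs1 over the early step. Uqcr10 (ENSMUSG00000059534, mm10 chromosome 11, 4701973 to 4704342, reverse strand) was at 31.7 ± 4.24 at E11.5, 82.1 ± 18.1 by E13.5, 154 ± 3.94 at E15.5 and 68.3 ± 3.28 by E18.5 FPKM (SD, n = 2 recovered libraries). Uqcr10 rose by 1.35 ± 0.152 to E13.5 and by 0.92 ± 0.152 to E15.5 and fell by 1.18 ± 0.152 to E18.5 (SE, log2, limma adjusted p = 0.000267, 0.00262 and 0.000558). Uqcr11 was at 21.5 ± 4.99 at E11.5, 45.6 ± 10.2 by E13.5, 105 ± 8.15 at E15.5 and 46.5 ± 1.22 by E18.5 FPKM (SD, n = 2 recovered libraries), and Uqcrb, which lies near the quinone site, at 45.6 ± 4.74 at E11.5, 115 ± 20.9 by E13.5, 182 ± 11.6 at E15.5 and 124 ± 0.575 by E18.5 FPKM (SD, n = 2 recovered libraries). For these 3 genes both E11.5 libraries lay below every other library. Uqcrh, the hinge protein, was at 34.9, 54.4, 97.4 and 52.1 FPKM, and Uqcrq at 18.1, 20.9, 42.2 and 25.9 FPKM. Under equal totals, 5 of 8 were above 0 at the middle step.

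**Figure D2:**
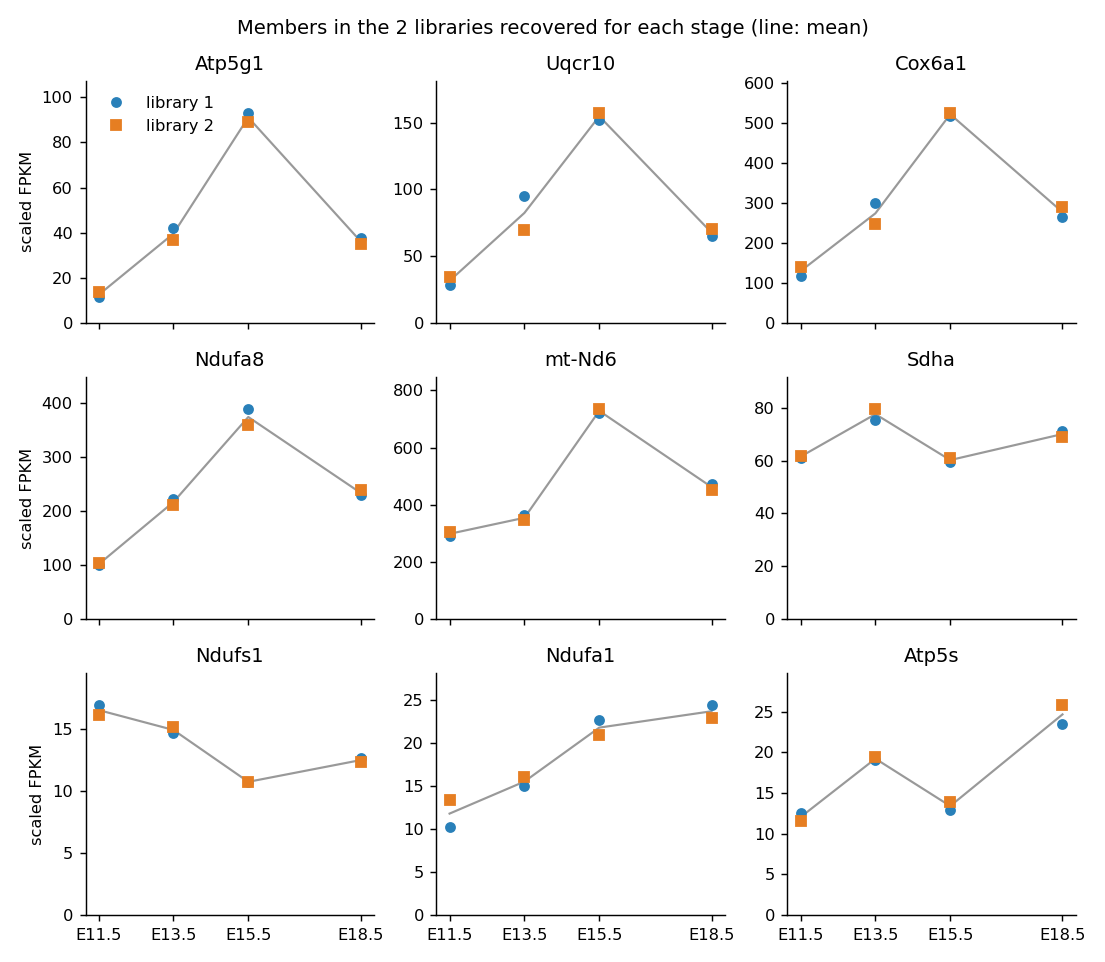
Scaled FPKM (vertical axes, from 0) of 9 members at the 4 stages, with a point for each of the 2 recovered libraries and a line through their mean. Atp5g1, Uqcr10, Cox6a1, Ndufa8 and mt-Nd6 peak at E15.5, while Sdha and Ndufs1 are low there and Ndufa1 and Atp5s are highest at E18.5.

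Complex IV, cytochrome c oxidase, reduces oxygen and holds several subunits with tissue isoforms. Its 15 measured nuclear genes had medians of 0.73, 0.68 and -0.78 over the successive steps, with 12 of 15 above 0, 13 of 15 above 0 and 13 of 15 below 0. The most abundant were Cox6a1, Cox4i1 and Cox6b1. Cox6a1, whose promoter is printed above, was at 130.3 ± 16.1 at E11.5, 274 ± 37.2 by E13.5, 519.7 ± 6.14 at E15.5 and 280.2 ± 17.0 by E18.5 FPKM (SD, n = 2 recovered libraries), and the lowest E15.5 library (518 FPKM) lay above the highest of any other stage (300.4 FPKM). Cox4i1, a regulatory subunit, was at 147, 272, 436 and 316 FPKM in stage order, and Cox6b1 at 89.4 ± 7.85 at E11.5, 164 ± 17.2 by E13.5, 321 ± 8.20 at E15.5 and 167 ± 5.47 by E18.5 FPKM (SD, n = 2 recovered libraries). Cox8a, at 73.8, 166, 319 and 153 FPKM, was 2-fold apart in 3 of the comparisons. Cox5a was at 42.0 ± 1.69 at E11.5, 61.9 ± 3.29 by E13.5, 91.1 ± 6.30 at E15.5 and 44.6 ± 0.231 by E18.5 FPKM (SD, n = 2 recovered libraries) and was back near its first level at E18.5 (limma adjusted p = 0.265 for the whole interval). Cox7c was the member of this complex that fell over the whole interval, at 51.9, 58.5, 71.7 and 41.4 FPKM in stage order (difference -0.32, limma adjusted p = 0.0265).

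Each isoform family of complex IV was carried by its widely expressed member. Cox4i1 made up 98.8% to 99.7% of the summed FPKM of the Cox4i pair, and Cox4i2, the lung-type isoform, was at 1.57, 3.38, 1.35 and 0.942 FPKM. Cox6b1 took 89.9% at E11.5 and 94.9% to 97.4% later, and Cox6b2, known from testis, was at 10.1, 5.62, 8.66 and 9.05 FPKM with a highest level at E11.5. Cox8a was the sole measured member of its family, Cox8b and Cox8c being listed at 0 in every stage. Cox7b2 stayed at 0.151 FPKM or less beside Cox7b at 31.5, 52.8, 87.4 and 45.4 FPKM.

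The heart and muscle isoforms Cox6a2 and Cox7a1 behaved unlike each other. Cox6a2 (ENSMUSG00000030785, mm10 chromosome 7, 128205435 to 128206387, reverse strand) had 3 and 2 reads in the E11.5 libraries, 0 in the 4 libraries of E13.5 and E15.5, and 56 and 69 reads at E18.5, where its level was 7.18 ± 1.07 FPKM (SD, n = 2 recovered libraries). It was at least 39.1-fold higher at E18.5 than at E15.5, taking 3 reads over both libraries as the most that a count of 0 allows, which covers counting error only. At E18.5 Cox6a2 made up 2.498% of the Cox6a family, and the 6 muscle markers together were at 0.927 FPKM with 2 of them at 0. Cox7a1 was at 0.362 ± 0.0792 at E11.5, 2.48 ± 0.222 by E13.5, 6.73 ± 2.36 at E15.5 and 0.950 ± 0.923 by E18.5 FPKM (SD, n = 2 recovered libraries), from 3 and 4 reads in the E11.5 libraries, 27 and 21 reads by E13.5, then 35 and 50 reads at E15.5, and 2 and 11 reads by E18.5. By limma it rose, rose and fell (adjusted p = 0.0114, 0.0305 and 0.00186). Its highest share of the family of Cox7a1, Cox7a2 and the supercomplex factor Cox7a2l was 2.31%, at E15.5. With so few reads the E18.5 level of Cox7a1 is poorly determined.

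Complex V makes ATP in its F1 head, which is driven by the membrane rotor of c-subunits. All 17 measured nuclear genes were higher at E13.5 than at E11.5 (median 0.77), 14 of 17 were higher again at E15.5 (median 0.53), and 16 of 17 were lower at E18.5 (median -0.76). Under equal totals the middle-step median turned to -0.10 and that of the whole interval to -0.08. Atp5b and Atp5a1, the catalytic and regulatory subunits of the head, were the most abundant nuclear members of all by FPKM. Atp5b was at 565 FPKM at E11.5, 935 by E13.5, 889 at E15.5 and 636 by E18.5. Atp5a1 was at 300.36 FPKM at E11.5, 505 by E13.5, 476 at E15.5 and 395 by E18.5. Both were at their highest at E13.5, not at E15.5. Atp5c1, the central stalk, was at 213, 365, 403 and 296 FPKM in stage order. The 5 subunits of the head and central stalk had a median of 0.14 at the middle step, against 0.56 for the other 12, and under equal totals both turned negative, to -0.48 and -0.03. This split too was made after the values were seen.

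The c-subunit of the rotor is encoded by 3 genes with the same mature protein, and all 3 were measured. Atp5g3 gave 75.1% of their summed FPKM at E11.5 and 68.7% at E15.5, at 132 FPKM at E11.5, 278 by E13.5, 406 at E15.5 and 195 by E18.5. Atp5g1 (ENSMUSG00000006057, mm10 chromosome 11, 96068852 to 96075670, reverse strand) had the largest difference between E15.5 and E11.5 of the measured nuclear members (2.77), at 12.5 ± 1.52 at E11.5, 39.4 ± 3.71 by E13.5, 90.6 ± 3.07 at E15.5 and 36.6 ± 1.77 by E18.5 FPKM (SD, n = 2 recovered libraries). Its share of the family grew from 7.08% at E11.5 to 15.3% at E15.5 and was 12.7% at E18.5. Atp5g1 was divided by 4912 exon bases for an mRNA of 596, and Atp5g3 by 2181 for 714, so this share is understated against Atp5g3. Of the 50-base windows of Atp5g1, 11.1% occur in transcripts of other genes, which makes its level less certain. The processed pseudogene that shares the most windows with it was listed at 37.0, 129, 299 and 126 FPKM before scaling in stage order. Atp5g1 rose by 1.60 ± 0.0945 and 1.19 ± 0.0945 and then fell by 1.31 ± 0.0945 (SE, log2, limma adjusted p = 1.29e-05, 0.000131 and 4.15e-05). Atp5g2 was at 31.3 ± 2.16 at E11.5, 67.6 ± 2.78 by E13.5, 94.4 ± 2.59 at E15.5 and 55.3 ± 3.62 by E18.5 FPKM (SD, n = 2 recovered libraries), with 38.3% of its 50-base windows found in transcripts of other genes, which makes its level less certain.

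Among the other subunits, Atp5o, the stalk protein that confers oligomycin sensitivity, was at 23.7 ± 1.995 at E11.5, 42.9 ± 1.90 by E13.5, 77.7 ± 4.10 at E15.5 and 33.1 ± 1.61 by E18.5 FPKM (SD, n = 2 recovered libraries), with 41.6% of its windows shared, and Atp5j2 at 11.3, 20.9, 39.8 and 16.3 FPKM. Both were over 2-fold lower at E18.5 than at E15.5, as were Atp5g1, Atp5g3 and Atp5k (4.58, 7.405, 11.54 and 4.75 FPKM). Atp5l, a membrane subunit, was 2-fold higher at E18.5 than at E11.5, at 3.62, 7.01, 10.03 and 8.70 FPKM. Atp5f1 and Atp5h, of the peripheral stalk, were at 125, 183, 218 and 133 FPKM and 84.7, 124, 176 and 112 FPKM. Atp5s, which the symbol rule includes although it is an assembly-type factor and not a structural subunit, went its own way, at 12.1 ± 0.704 at E11.5, 19.2 ± 0.303 by E13.5, 13.3 ± 0.689 at E15.5 and 24.95 ± 1.68 by E18.5 FPKM (SD, n = 2 recovered libraries). It fell by 0.49 to E15.5 and rose by 0.83 to E18.5 on the log2 scale (limma adjusted p = 0.000962 and 5.50e-05), and its E15.5 libraries lay below those of E13.5 and E18.5.

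**Figure D3:**
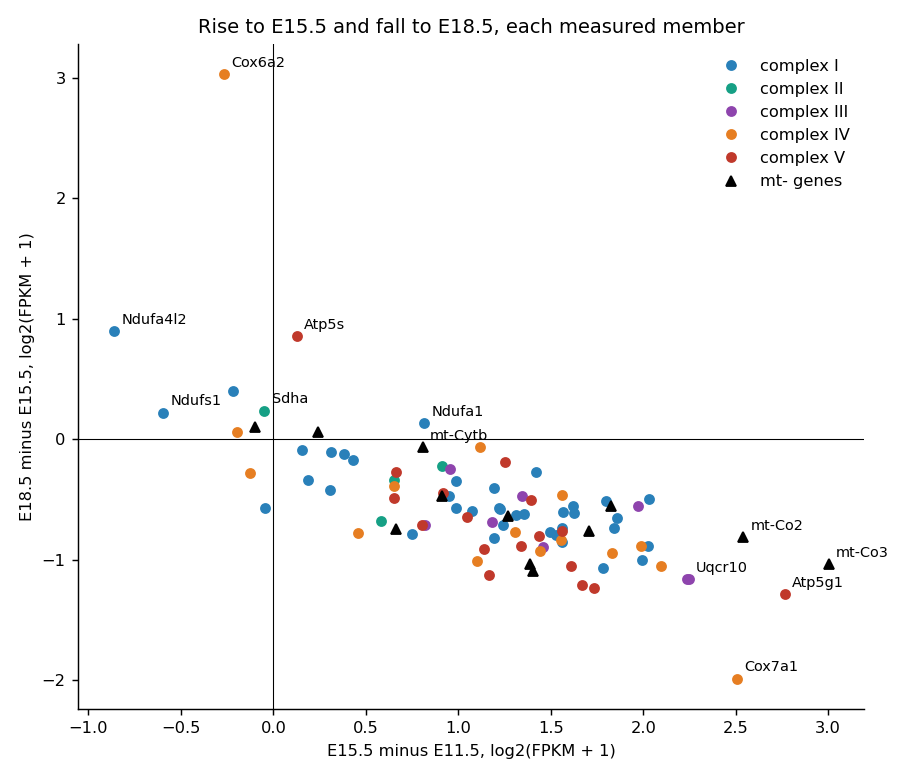
Each measured member by its difference between E15.5 and E11.5 (horizontal axis) and between E18.5 and E15.5 (vertical axis), both in log2(FPKM + 1), coloured by complex, with triangles for mt- genes. The axes share the E15.5 value, so a slope is built in. Most members lie at lower right, higher at E15.5 than before and after, and Cox6a2 lies alone at the top with 0 reads at E15.5.

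The 13 protein genes of mitochondrial DNA are transcribed as long precursors from both strands and cut apart, so their levels reflect processing and stability as well as transcription. The summed level of the 12 measured was 4662, 7009.7, 10056 and 7679.8 FPKM in stage order. Their medians were 0.46, 0.89 and -0.69 over the successive steps, with 10 of 12 above 0, 10 of 12 above 0 and 10 of 12 below 0, and 10 of 12 were highest at E15.5. Under equal totals 6 of 12 were highest at E15.5, 4 at E13.5 and 2 at E11.5, and as a share of all FPKM the sum was 1.51%, 2.07%, 1.92% and 1.66% in stage order. By the fold rule 2 of 12 were higher at E13.5, 5 of 12 higher at E15.5 and 2 of 12 lower at E18.5, beside the shares of all genes given for the nuclear members. Of the 6 with recovered libraries, limma called 3 risen at E13.5, 3 risen at E15.5 and 2 fallen at E18.5, with 0 in the other direction at each step, where 31.4% and 28.7% of all genes rose and 30.8% fell. The count of the late step is close to that share. The 6 were mt-Nd6, mt-Atp8, mt-Nd4l, mt-Co2, mt-Co3 and mt-Atp6. Those called were mt-Nd6 and mt-Co2 at each step, with mt-Co3 at E13.5 and mt-Atp6 at E15.5. Of the genes called, all but mt-Nd6 have nearly all their sequence in transcripts of other genes, as given below. mt-Nd1, mt-Nd2, mt-Nd5 and mt-Cytb, which share little or none, were not among the 6, so these counts do not cover them. Under equal totals the median of the middle step was 0.37, that is 0.78 above the median of all genes.

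Nuclear copies of mitochondrial DNA limit which of these levels can be trusted. For mt-Co2, mt-Co3, mt-Atp6, mt-Nd3 and mt-Nd4l, 98.0% to 100% of all 50-base windows also occur in transcripts of other genes, among them unprocessed pseudogenes, for mt-Nd4 62.2% and for mt-Co1 51.1%. The authors' treatment of reads that fit several places was not given in the sources used here. Those 5 genes with 98.0% or more of windows shared were at 139 FPKM or less in every stage. Genes with no shared window lay at both extremes. mt-Cytb was at 1871 FPKM at E11.5, 3221 by E13.5, 3276 at E15.5 and 3132 by E18.5, and mt-Atp8 at 0.271, 0.897, 2.36 and 0.574 FPKM in stage order. Whether the low levels of the 5 genes come from discarded reads was not tested. The 6 genes with under 10% of windows shared had medians of 0.41, 0.54 and -0.55, and the 6 measured genes with more shared windows had 0.46, 0.98 and -0.75.

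**Figure D4:**
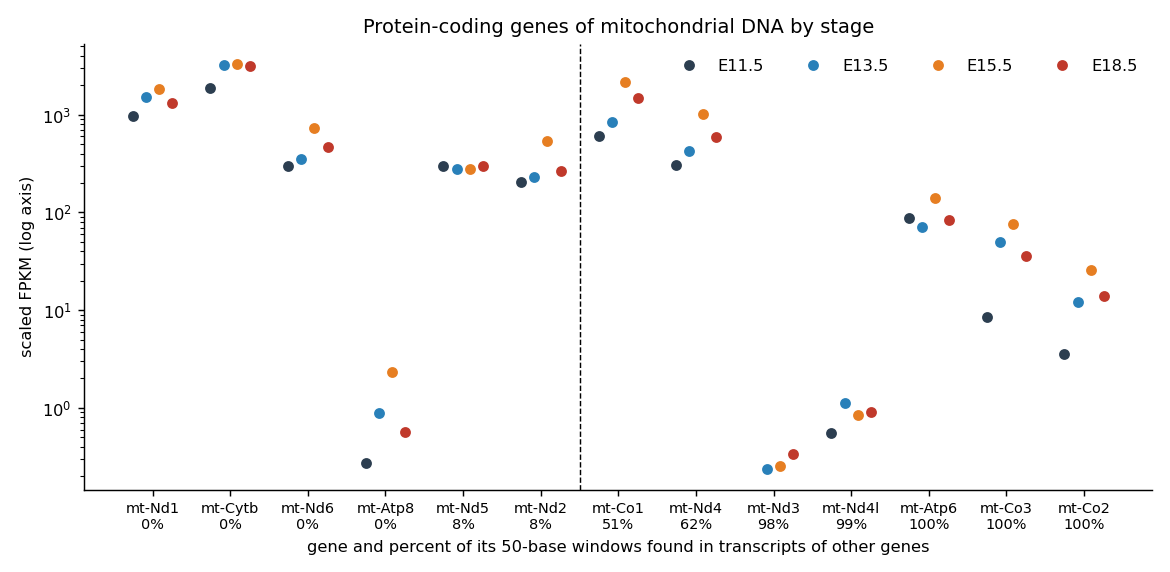
Scaled FPKM on a log axis of the 13 mt- genes at the 4 stages, ordered by the percent of their 50-base windows that also occur in transcripts of other genes, with a dashed line at 10%. mt-Nd3 is listed at 0 at E11.5 and has no point there. mt-Nd1 and mt-Cytb are the highest of the genes left of the line, and mt-Nd5 is level between 279 and 299 FPKM.

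Of the complex I genes, mt-Nd1 (ENSMUSG00000064341, mm10 chromosome M, 2751 to 3707, forward strand), a single-exon gene of the membrane arm, was at 971 FPKM at E11.5, 1524 by E13.5, 1828 at E15.5 and 1322 by E18.5. mt-Nd2 was at 206 FPKM at E11.5, 232 by E13.5, 540.1 at E15.5 and 263 by E18.5 and was more than 2-fold higher at E15.5 than in each other stage. mt-Nd4 was at 307, 420.4, 1005 and 594 FPKM in stage order. mt-Nd5 was level, at 299, 279, 279 and 299 FPKM, with differences of 0.10 or less in size at every step. mt-Nd6, the only protein gene on the light strand, could be split into libraries in all stages, as could mt-Atp8 of the other genes with under 10% of windows shared. mt-Nd6 was at 300.02 ± 11.502 at E11.5, 353 ± 12.2 by E13.5, 724 ± 11.1 at E15.5 and 467 ± 16.2 by E18.5 FPKM (SD, n = 2 recovered libraries). By limma it rose by 0.25 ± 0.0514 and 1.04 ± 0.0514 and fell by 0.66 ± 0.0514 over the successive steps (SE, log2, adjusted p = 0.00482, 2.39e-05 and 5.84e-05). The strand setting of the counting was not given in the sources used here, so antisense reads cannot be told apart from those of mt-Nd6.

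mt-Cytb, the complex III gene, was higher at E13.5 than at E11.5 by 0.78 and then changed by 0.02 and -0.07. Of the complex IV genes, mt-Co1 was at 608 FPKM at E11.5, 844 by E13.5, 2160.3 at E15.5 and 1469.8 by E18.5 and was 2-fold higher at E15.5 than at E13.5. mt-Co2 was at 3.55 ± 0.406 at E11.5, 12.1 ± 3.65 by E13.5, 25.5 ± 9.40 at E15.5 and 14.1 ± 0.181 by E18.5 FPKM (SD, n = 2 recovered libraries). mt-Co3 was at 8.53 ± 0.950 at E11.5, 50.3 ± 29.8 by E13.5, 75.3 ± 42.2 at E15.5 and 36.2 ± 8.70 by E18.5 FPKM (SD, n = 2 recovered libraries), and its libraries held 113 and 129 reads at E11.5, 439 and 944 by E13.5, then 462 and 918 at E15.5, and 427 and 300 by E18.5. By limma mt-Co3 rose to E13.5 by 2.31 ± 0.508 (SE, log2, adjusted p = 0.00635) and did not pass at the middle and late steps (adjusted p = 0.362 and 0.137). The libraries of 1 stage thus differed by about as much as the later stages did, while both E11.5 libraries were lowest. Of the complex V genes, mt-Atp6 was at 87.3 ± 18.8 at E11.5, 71.3 ± 5.32 by E13.5, 139 ± 23.9 at E15.5 and 82.7 ± 36.3 by E18.5 FPKM (SD, n = 2 recovered libraries), with overlapping libraries at E11.5, E13.5 and E18.5, and mt-Atp8 had from 0 to 9 reads per library and cannot be compared.

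The summed levels of both sets were lowest at E11.5 and highest at E15.5, while E13.5 was above E18.5 for the nuclear set and below it for the mt- set, and the ratio of their summed levels stayed between 0.861 and 1.02. This ratio of mt- to nuclear FPKM, which no scaling between samples can change, was 0.936 at E11.5, 0.861 by E13.5, 0.891 at E15.5 and 1.02 by E18.5. Without the members of both genomes that share 10% or more of their windows it was 0.896, 0.842, 0.736 and 0.898, so the order of E13.5 and E15.5 depends on genes of uncertain level. With mt-Cytb and mt-Co1 left out, which are among the highest mt- genes, the ratio was 0.438, 0.362, 0.409 and 0.409 in stage order. It was then highest at E11.5 and not at E18.5, so the stage of the highest ratio depends on a few abundant genes. The mt- median minus the nuclear median was -0.19, 0.30 and -0.08 over the early, middle and late steps and -0.06 over the whole interval. Over pairs of recovered libraries these differences had SDs of 0.128, 0.250, 0.494 and 0.198. No more than the first 2 exceeded their SD, and without the shared members the second was -0.02. Library values exist only for members that could be split, 54 nuclear and 6 mt- in all 8 libraries. The SDs therefore leave out the spread of the others, mt-Cytb, mt-Nd1 and mt-Co1 among them.

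Short mRNAs in general shared part of the stage pattern, and most members are short. The median difference of other nuclear protein-coding genes with mRNAs under 600 bases was 0.42, 0.35 and -0.26 over the early, middle and late steps (n = 254), against 0.64, 0.78 and -0.73 for the 30 nuclear members of that length. From 1000 up to 2000 bases the other genes were at -0.05, 0.01 and 0.08 (n = 3134) and the 21 members at 0.65, 0.30 and -0.47. The 5 members of 2000 bases or more were at 0.20, -0.09 and -0.27. The libraries of E11.5 and of E13.5 also differed most among short mRNAs. In the second library of E11.5, 51 of 63 recovered nuclear members were higher (median 0.14, and 0.09 for other genes under 600 bases), and in that of E13.5, 8 of 58 were higher (median -0.18, and -0.14). At E15.5 and E18.5 the nuclear medians were 0.02 and 0.02. Over library pairs the SD of the nuclear median was 0.160, 0.122, 0.0423 and 0.125 in the same order with the whole interval last, each smaller than its median. These SDs leave out the spread of members that could not be split into libraries. The part of mRNA length and of the fragment selection in the members' differences was not tested.

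**Figure D5:**
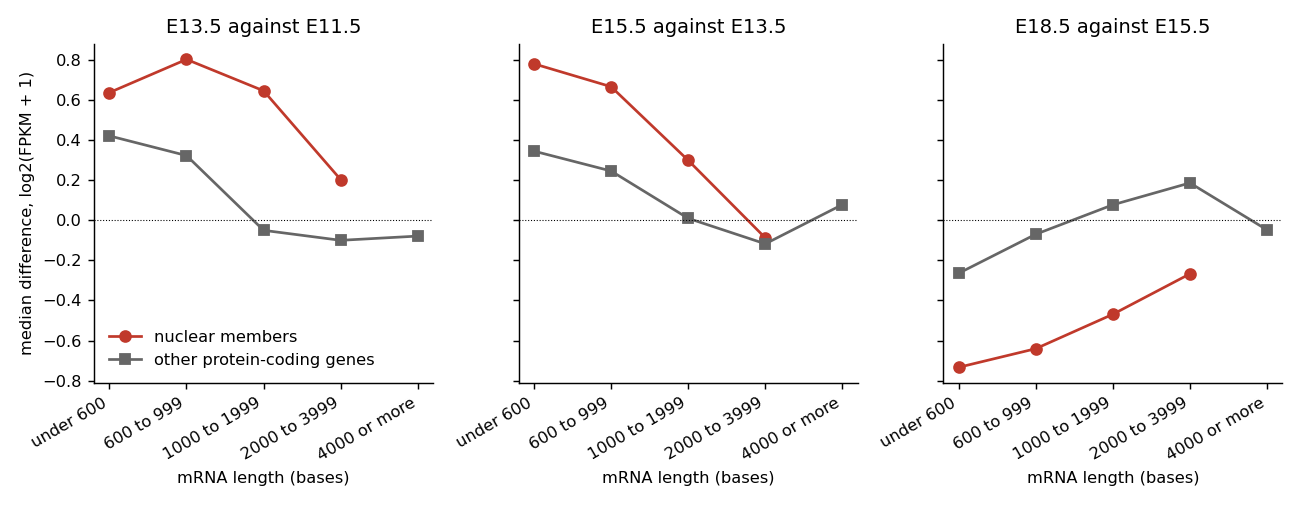
Median difference in log2(FPKM + 1) (vertical axis) by mRNA length (horizontal axis) for the nuclear members (red circles) and other nuclear protein-coding genes (grey squares), in 1 panel per step, with the main scaling. The members lie further from 0 than other genes of the same length under 2000 bases, and both lines are furthest from 0 under 600 bases in the middle and the last panel, while in the first the members are furthest from 600 up to 1000 bases.

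Other genes of mitochondria had smaller medians than the subunits. Under equal totals the middle-step medians of the assembly, import and citric acid cycle lists turned to -0.45, -0.45 and -0.46, which is -0.03, -0.04 and -0.05 relative to all genes, where the nuclear members were at 0.42. The 45 measured assembly factors, which build the complexes without staying in them, had medians of 0.19, 0.12 and -0.13 over the successive steps, with 19, 14 and 4 of 42 risen and 10, 6 and 20 fallen by limma. Of all genes 31.4%, 28.7% and 37.2% rose and 36.4%, 26.8% and 30.8% fell, so the count risen over the middle step is near that of genes in general. The largest range was that of Coa3, an assembly factor of complex IV, at 75.9, 152, 319.6 and 264 FPKM in stage order, followed by Ndufaf8 at 6.79, 11.1, 22.5 and 13.2 FPKM. Of the mobile carriers and exchangers that link the complexes, Cycs, the mobile cytochrome c, was at 38.1, 55.0, 84.97 and 38.6 FPKM and rose, rose and fell (limma adjusted p = 0.000227, 0.000234 and 9.96e-06), and Slc25a5, an ADP/ATP exchanger, was at 318, 838, 925 and 748 FPKM. The 11 measured carriers had medians of 0.44, 0.14 and -0.31 (-0.48 under equal totals for the middle step).

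The 35 measured genes of mitochondrial import and structure had medians of 0.36, 0.15 and -0.49, with 33 of 35 below 0 at the last step. The chaperonins Hspe1 (56.2, 119, 219 and 48.7 FPKM) and Hspd1 (307, 497, 361 and 149.8 FPKM) were lower at E18.5 than at E11.5. The 26 genes of the citric acid cycle and pyruvate entry had medians of 0.20, 0.15 and -0.14, among them Idh2 at 157, 350.2, 464 and 339 FPKM and the pyruvate carrier subunit Mpc2 at 5.76, 16.3, 21.1 and 19.6 FPKM. The 18 genes that copy and transcribe mitochondrial DNA had medians of 0.06, -0.15 and 0.06, and 0 of 17 rose and 9 of 17 fell by limma at E15.5 (28.7% and 26.8% of all genes), the stage at which most mt- genes were highest with the main scaling. The 22 genes of mitochondrial RNA processing had medians of -0.03, 0.08 (-0.46 under equal totals) and -0.24, with Mrpl12 at 43.8, 68.3, 102 and 40.0 FPKM and Rexo2 at 20.8, 23.7, 59.1 and 28.5 FPKM.

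The 16 measured regulators known to act on these genes had medians of 0.10, 0.18 (-0.26 under equal totals) and -0.42, with 3, 6 and 3 of 13 risen and 3, 4 and 7 fallen by limma. At 13 genes several of these counts are near or below the shares of all genes given for the assembly factors. Nrf1, a factor that binds many promoters of this kind, was at 8.15, 5.73, 4.13 and 4.21 FPKM in stage order, and fell over the early and the middle step (limma adjusted p = 0.000411 and 0.00115). Gabpa, an ETS factor, was at 4.58, 5.03, 6.85 and 3.68 FPKM and rose at E15.5 with the main scaling (limma adjusted p = 0.00123). Tfam, which packages mitochondrial DNA and starts its transcription, was at 18.9, 26.7, 22.9 and 12.5 FPKM and was highest at E13.5, and the polymerase Polrmt was at 4.84, 4.81, 3.77 and 3.98 FPKM. The coactivators were low, Ppargc1a at 0.591, 0.587, 0.824 and 1.47 FPKM, Ppargc1b at 0.373, 0.592, 0.507 and 0.313 FPKM and Pprc1 at 2.45, 3.68, 4.08 and 1.93 FPKM, and so was the nuclear receptor Esrra at 2.41, 3.39, 2.76 and 3.57 FPKM. Myc, a growth regulator, had the largest range of the list on the log2 scale, at 10.1, 57.0, 50.3 and 17.9 FPKM.

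The genes with the most similar profile over the 4 stages to the mean of the nuclear members, by distance between centred log2 levels among 5551 candidates at 10 FPKM or more in a stage, were Gadd45gip1 (9.31, 14.4, 21.9 and 14.1 FPKM), Ftl1, Cltc, Mrpl54, Sap18, Aldh7a1, A430005L14Rik, Mrpl23, Sem1 and Timm13. Those nearest to the mt- mean were Ost4 (6.54, 10.3, 17.6 and 11.4 FPKM), Wdr83os, Prdx4, Mrpl14, D8Ertd738e, Ssr3, Romo1, Timm13, Ak3 and Cltc. Timm13 and Cltc stood on both lists. With 4 stages and 1 sample each, many genes can lie this close to a profile.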

How the data were processed

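The samples were fetal pancreas of WT mice at 4 stages, 1 per stage, sequenced as total RNA. The values the authors deposited are FPKM per gene, averaged within a stage. Alignment used HISAT2 2.0.5 to mm10, per the submitters' processing notes. The counting tool, annotation, strand setting and the number of libraries were not given in the sources used here. Symbols, exon lengths and positions came from GENCODE M21 (mm10), which named 54409 of 54532 IDs.

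The members, lists and comparisons were chosen with earlier results of these data known, and nothing in them is independent of those results. Members are all protein-coding genes whose symbol names a subunit. All of them may be named, except that 1 gene is not reported here by name. From each other list up to 4 genes with the largest range of log2 level among those reaching 5 FPKM are named, with 8 known regulators and the 10 genes nearest to each mean profile.

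Each stage was divided by its median-of-ratios factor (0.988, 1.03, 1.03 and 0.962, over 9884 genes that reached 1 FPKM at all stages). Differences were taken as log2(FPKM + 1), so changes of low genes are understated. The 14828 genes that reached 1 FPKM somewhere were compared by the fold rule on that scale. This scaling is blind to a change shared by most genes.

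FPKM values were found to be means of 2 libraries of whole reads. For each gene and stage, the pair of read numbers that gives the deposited value within 1.05 of its last decimal place was searched, and accepted where less than 0.05 other pairs were to be expected by chance. Of the genes attempted, 96.3% to 96.5% were split. The FPKM denominators gave 13680200 to 17951300 estimated reads per library, and the ratio of reads to the denominator ran from 0.898 to 1.26. limma 3.58.1 in R 4.3.3 (trended variance, all 4 stages in 1 fit, Benjamini-Hochberg adjustment at 0.05) was run on the 13029 genes recovered in all 8 libraries, an analysis chosen after the data were seen. Highly expressed genes have many possible pairs and are under-represented in it. Scripts were tested on simulated data.

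Shared sequence is the percent of a gene's 50-base exon windows that occur in transcripts of other genes, with 10% as the threshold. Promoter windows came from RefSeq GRCm38.p6. FPKM divides by the length of all annotated exons, so levels of genes with long rare exons are understated against other genes. Alternatives tried were a pseudocount of 0.1 FPKM, no filter on low values, deposited FPKM without scaling, equal totals, the 1.5-fold rule, leaving out members that share sequence, and leaving out each recovered library.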

Additional observations from a re-analysis of the deposited data

How the results depend on the processing

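The medians of all nuclear and of all mt- members kept their direction in all 4 comparisons under the alternatives run, while single complexes did not under equal totals, as given above. When samples were set to equal totals, the nuclear counts past the 2-fold rule were 5, 2, 6 and 2 over the early, middle and late steps and the whole interval, where the main scaling gave 14, 5, 13 and 18. The nuclear medians under equal totals were 0.0060 over the middle step, -0.44 over the late step and 0.062 over the whole interval, and the mt- medians were 0.37 and 0.10 for the first and the last of these. limma then called 38 nuclear members risen and 5 fallen over the early step, where 3507 of 13029 genes rose and 5804 fell. Over the middle step 10 rose and 10 fell (1118 and 7921 of all genes). Over the late step 5 rose and 39 fell (5804 and 2921 of all genes), and over the whole interval 23 rose and 10 fell (2877 and 7694). With no scaling the nuclear median of the late step was -0.70. The 1.5-fold rule gave 50, 41, 45 and 42 nuclear members. The mt- median minus the nuclear median over the whole interval turned from -0.06 to 0.038 with a pseudocount of 0.1 FPKM and to 0.039 with equal totals. Without members that share sequence it turned to -0.018 over the middle step and to 0.015 over the late step, the mt- median of the middle step was 0.54, and the ratios of summed FPKM were 0.896, 0.842, 0.736 and 0.898 in stage order. Apart from what each alternative does by construction, the cause of these shifts was not tested.

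Leaving out 1 recovered library at a time, limma called 37 to 44 nuclear members risen over the early step, 41 to 46 risen over the middle step and 40 to 43 fallen over the late step. Of the 6 mt- members it called 1 to 4 risen, 1 to 3 risen and 1 to 3 fallen at these steps. The early count was 1 without E11.5 library 1, and the middle count 1 without E13.5 library 2 or E15.5 library 2. The late count was 1 without E11.5 library 1 or 2, E15.5 library 2 or E18.5 library 2. A stage left with 1 library was taken to vary like the others. No paired analysis was possible because each stage has 1 sample and the recovered libraries carry no numbers from the labels. Depth limits mt-Atp8, mt-Nd4l, Cox7a1, Cox6a2, Ndufa4l2 and Cox4i2, which rest on few reads. Most of the highest members could not be split into libraries and have no measured error.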

Other observations

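Genes of mitochondrial DNA that make no protein were listed too. mt-Rnr2, the large ribosomal RNA, was at 272, 455, 2305 and 825 FPKM in stage order, and mt-Rnr1, the small one, at 17.5, 25.6, 77.1 and 40.4 FPKM. The tRNA genes mt-Te and mt-Tp, chosen after their values were seen, were at 7.61, 9.27, 29.3 and 18.1 FPKM and 5.76, 17.6, 35.7 and 15.7 FPKM, and mt-Tf, mt-Ts1, mt-Tk and mt-Tg were listed at 0 in every stage. Both ribosomal RNAs, mt-Te and mt-Tp were highest at E15.5. Of the 17 tRNA genes that reached 1 FPKM in a stage, 11 were highest at E15.5, 3 at E18.5, 2 at E13.5 and 1 at E11.5, most of them at a few FPKM. How ribosomal RNA was removed or avoided was not given in the sources used here.

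Glycolysis genes did not share the profile of the members. The 17 genes had medians of -0.43 over the early step, 0.16 over the middle step (-0.37 under equal totals) and 0.18 over the late step. Ldhb, a lactate dehydrogenase subunit, was at 416, 28.8, 21.9 and 70.97 FPKM in stage order and Pkm, the pyruvate kinase, at 581, 378, 182 and 205 FPKM, both highest at E11.5. Aldoc, an aldolase, was at 2.98, 6.63, 9.44 and 98.1 FPKM and was highest at E18.5. Gapdh was listed at 4.58, 12.3, 2.81 and 1.74 FPKM, low for a gene used by every cell, and it has many near-identical copies, so its level is uncertain. The E11.5 sample also held the highest levels of the erythroid, muscle and neuronal markers, and their part in these values was not tested.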
